A study of Saccharomyces cerevisiae with 222 samples.

Results

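Chromosome 12 of budding yeast carries the ribosomal DNA (rDNA), and the data described here are the positions on this chromosome where newly made DNA was enriched in early S phase. The members were chosen by position among measured peaks: every row on chromosome 12 in the 6 lists of EdU peak summits was taken, which gave 431 of 2434 summits (17.7%). Because peak calls chose the members, and the stretches below were drawn with the calls in view, the numbers of summits are a description and carry no test. The chromosome (1078177 bp, R64 assembly) was read in 4 fixed pieces: the first 200 kb, the 250 kb from there to 450 kb, the rDNA piece from 450 to 491 kb, and the rest of the right arm.

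The study asked what happens in S phase to cells that had replicated part of their genome ahead of time, in G1. CDK/DDK bypass cells (strain YKR1447) carried galactose-inducible Dpb11, a CDK-independent form of Sld2 and Dbf4. CDK bypass cells (strain YKR1445) carried the inducible Dpb11 and Sld2 without Dbf4, and control cells (strain E3087) carried none of these constructs. All 3 strains are of the W303 background and take up EdU, a thymidine analog. They were held in G1 with α-factor, given galactose for 3 h, and released into medium with 100 µM EdU and 200 mM hydroxyurea (HU) for 90 min, so each list shows S-phase synthesis after the G1 period, in 2 replicates per group. Labels do not say whether replicates were separate cultures, so the spread between them may be technical. The score of a summit is −log10 of its q-value against total DNA of the same sample, so a higher score means a more significant enrichment. Depth per sample is unknown, and scores grow with depth.

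In budding yeast, replication starts at origins called autonomously replicating sequences (ARS), where an ARS consensus element is bound by the origin recognition complex. Origins are loaded with the replicative helicase in G1 and fire in S phase, when CDK acts on Sld2 and Sld3 and the Dbf4-dependent kinase DDK acts on the helicase. HU starves forks of nucleotides, so that label stays close to origins that fire early. The rDNA is a long tandem array of identical units, each with an ARS and a fork barrier in its spacers, of which the reference holds only a pair of full copies.

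The rDNA origin and the place of a CDK/DDK bypass summit at the right end of the rDNA piece are shown first because both sequences occur in more than 1 copy in the reference. The ARS in the spacer of the first unit, ARS1200-1 (chr12:458991-459097, minus strand), is base for base the same as ARS1200-2 (chr12:468128-468234). Capitals mark its exact match to the ARS consensus.
ARS1200-1: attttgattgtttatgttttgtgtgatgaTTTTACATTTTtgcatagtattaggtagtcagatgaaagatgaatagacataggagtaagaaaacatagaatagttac
The next sequence surrounds the right-end summit of CDK/DDK bypass replicate 1 (chr12:490158-490238, plus strand), with the summit base in capitals. The same 81 bases occur at 3 places on chromosome 12, the other 2 inside the 25S rRNA genes RDN25-1 (chr12:452190-452270) and RDN25-2 (chr12:461327-461407).
right-end copy: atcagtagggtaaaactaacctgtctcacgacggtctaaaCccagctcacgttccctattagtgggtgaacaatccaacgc

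The summits of CDK/DDK bypass cells lay mostly in the 250 kb to the left of the rDNA. CDK/DDK bypass lists held 126 and 123 summits on chromosome 12, CDK bypass lists 46 and 48, and control lists 39 and 49. In the 250-kb stretch there were 108 and 98 summits in CDK/DDK bypass, 8 and 11 in CDK bypass, and 7 and 10 in control. The CDK/DDK bypass lists stood apart from the other 4 lists, which overlapped each other. These summits were 32.6% and 25.8% of all nuclear summits in the CDK/DDK bypass lists, 2.07% and 2.58% in CDK bypass, and 2.201% and 2.55% in control.

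**Figure D1:**
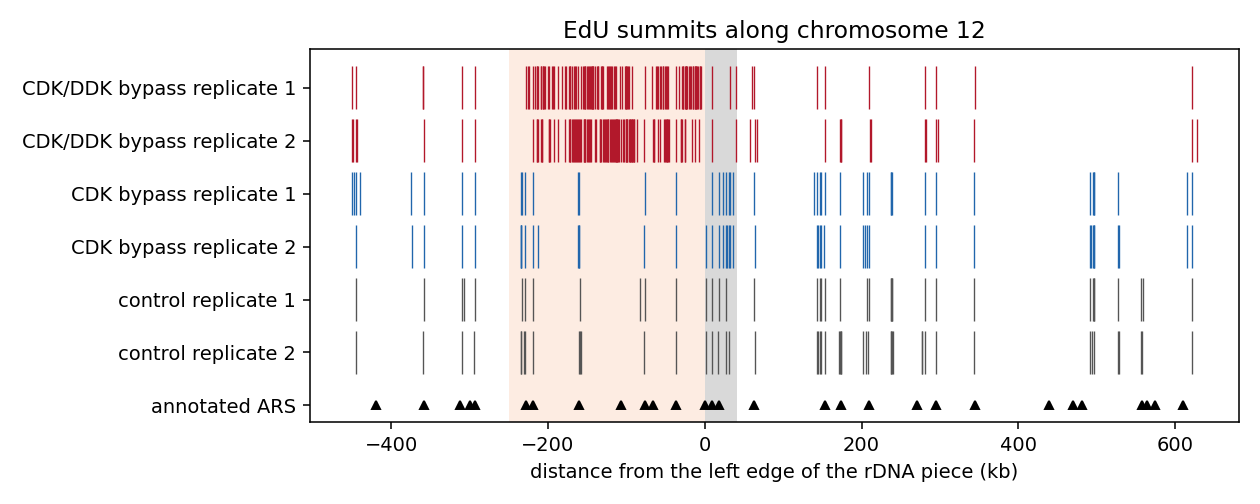
Each vertical line is 1 summit, placed by its distance in kb from the left edge of the rDNA piece, in the 6 lists (CDK/DDK bypass above, control below), with annotated ARS as triangles; the 250-kb stretch is shaded orange and the rDNA piece grey. The 108 and 98 summits of CDK/DDK bypass fill most of the orange stretch, where the other lists hold 7 to 11.

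The other pieces did not follow this pattern. In the first 200 kb, lists held 6 and 7 summits in CDK/DDK bypass, 8 and 5 in CDK bypass, and 5 and 4 in control. In the rDNA piece there were 3 and 2 summits in CDK/DDK bypass, 7 and 9 in CDK bypass, and 4 and 5 in control. Some of these lay within 500 bp of a Ty retrotransposon or long terminal repeat (LTR). They were 1 and 0 in CDK/DDK bypass, 3 and 4 in CDK bypass, and 1 and 2 in control. With summits thinned to 1 per 5 kb, CDK bypass minus control in this piece fell from 3.5 to 0.5. To the right of the rDNA the means were 12.5 ± 4.95 in CDK/DDK bypass, 23 ± 0 in CDK bypass and 26.5 ± 4.95 in control (SD, n = 2 each). With 9 and 16, CDK/DDK bypass was below the other 4 lists, which had 23 to 30. At a Ty or LTR lay 2 and 2 of them in CDK/DDK bypass, 13 and 15 in CDK bypass, and 13 and 14 in control. What these summits contribute to the lower count was not tested. On the other 15 nuclear chromosomes together, lists held 205 and 257 summits in CDK/DDK bypass, 341 and 379 in CDK bypass, and 279 and 343 in control. Per 10 kb, chromosome 12 had 1.17 and 1.14 summits in CDK/DDK bypass and was the densest chromosome, against at most 0.312 and 0.364 on any other chromosome in the same lists. In each of the CDK bypass and control lists it was the third densest.

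**Figure D2:**
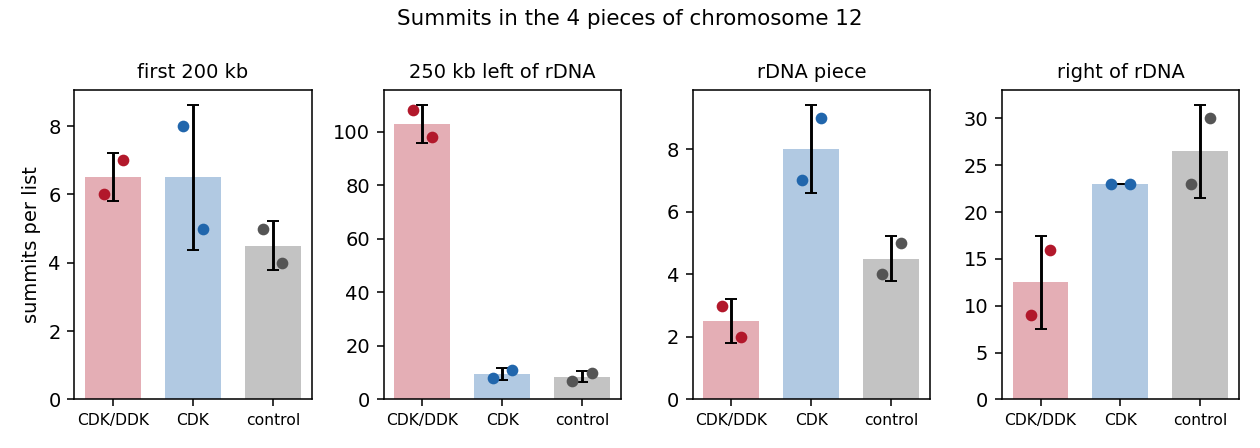
Summits per list in the 4 pieces of chromosome 12, each with its own axis from 0; points are the 2 replicates, bars the mean and lines the SD, with CDK/DDK bypass, CDK bypass and control from left to right. CDK/DDK bypass averaged 103 summits in the 250 kb left of the rDNA, and had the fewest in the rDNA piece and to its right.

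The dense array began near ARS1210 in replicate 1 of CDK/DDK bypass and near ARS1211 in replicate 2. The first summit of the stretch was at 221621 in CDK/DDK bypass replicate 1, in YLR036C and 599 bp from ARS1210, after 65.1 kb without a summit. In replicate 2 it was at 230695, after 74.2 kb without one. This place, beside NFG1, a gene of filamentous growth, lay 484 bp from ARS1211, which all 6 lists called. The first summits more than 2.5 kb from any ARS were at 226130 and 235405. The array ended at 445495 in replicate 1, 29 bp from ACS2, which makes acetyl-CoA from acetate, and at 442537 in replicate 2, in PCD1, a peroxisomal nudix hydrolase gene. Neither list then had a summit until the first 5S gene of the rDNA, 14.3 and 17.3 kb further on. The stretch was cut at 450 kb, so its summits lie to the left of the rDNA repeats by definition.

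Within the array the summits were closely spaced. The median distance between neighbours in the stretch was 1.51 and 1.18 kb in CDK/DDK bypass, 10.6 and 5.02 kb in CDK bypass, and 25.2 and 3.11 kb in control. Over the other chromosomes the medians were 31.5 and 27.9 kb in CDK/DDK bypass, 14.2 and 8.12 kb in CDK bypass, and 26.4 and 15.4 kb in control. The longest run of summits no more than 5 kb apart had 43 members in CDK/DDK bypass replicate 1. It spanned 73.0 kb from RPL22A, a protein gene of the large ribosomal subunit, to HRT3, an F-box protein gene. In replicate 2 the longest run had 41 members over 52.9 kb, from CSF1 to REA1. In the same lists the longest run on any other chromosome had 5 and 6 members, and no run on chromosome 12 had more than 6 in CDK bypass or 4 in control.

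Single summits of the stretch recurred in part between the CDK/DDK bypass replicates. In 10-kb bins, 22 of the 25 bins of the stretch held a summit in each of the 2 lists, against 6 and 6 in CDK bypass and 7 and 7 in control. Of the 108 summits of replicate 1, 55 (50.9%) had a replicate 2 summit within 500 bp, and of the 98 of replicate 2, 54 (55.1%) had one in replicate 1. Because the summits are dense, the 500 bp around those of the other list already covered 39.0% and 44.0% of the array's span in replicates 1 and 2. Among CDK bypass replicates the shares in the stretch were 87.5% of 8 and 81.8% of 11 summits, and among control replicates 71.4% of 7 and 50% of 10. Away from origins, 48 mutual nearest pairs of array summits lay within 500 bp of each other, a median of 158 bp apart, and 10 of them within 50 bp.

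Array summits were weak calls. Of the stretch's summits, 99 and 86 in the CDK/DDK bypass lists lay more than 2.5 kb from any ARS. Their scores ran from 1.77 to 21.3 in replicate 1 (median 5.44) and from 1.46 to 15.9 in replicate 2 (median 4.56), which placed the median summit at percentile 30.7 and 21.7 of its list. Summits away from an ARS on the other chromosomes numbered 40 and 65 in the same lists, with median scores of 9.66 and 8.20 and maxima of 191 and 196. No array summit away from an ARS came near those maxima.

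**Figure D3:**
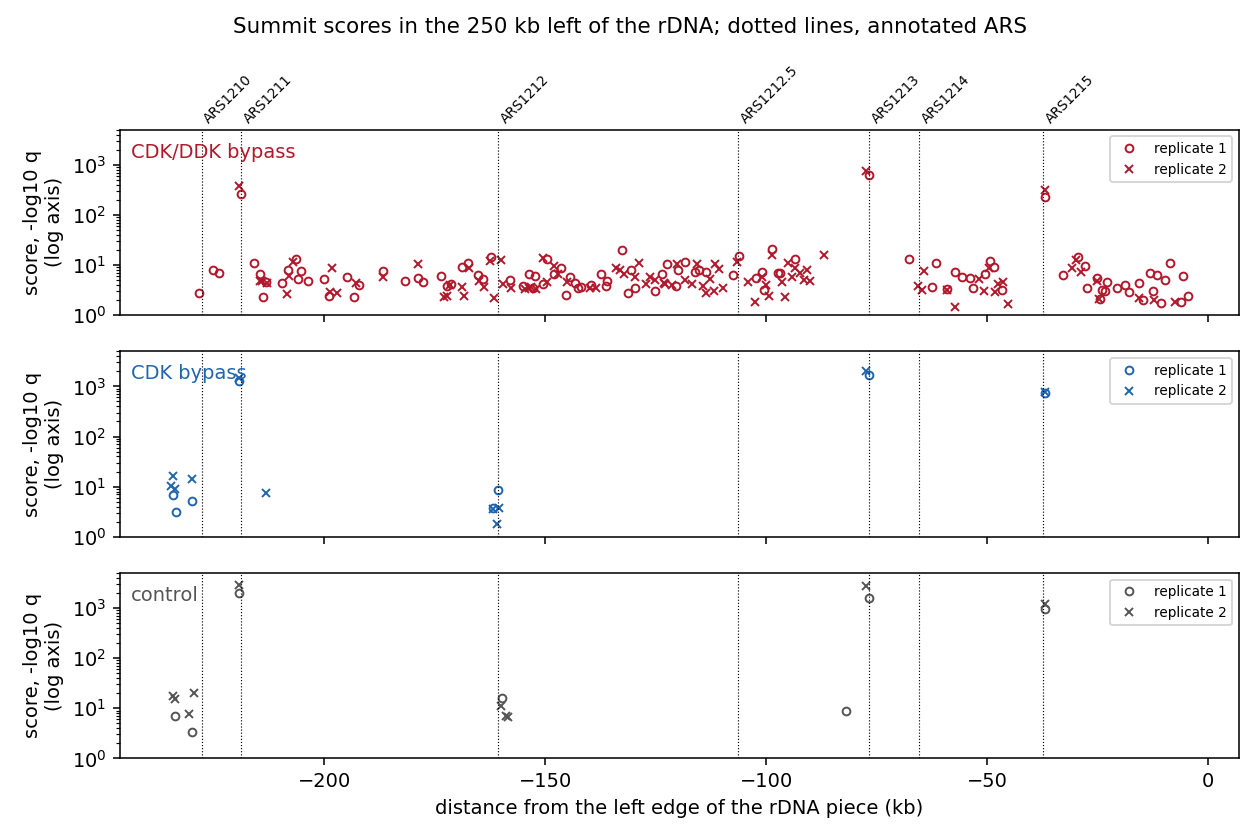
Score of each summit (−log10 q, log axis) against its distance in kb from the left edge of the rDNA piece, in the 250-kb stretch, for CDK/DDK bypass (top), CDK bypass (middle) and control (bottom), with replicates 1 (circles) and 2 (crosses) and annotated ARS as dotted lines. CDK/DDK bypass summits away from ARS lie between 1.46 and 21.3 along the stretch, while ARS1211, ARS1213 and ARS1215 exceed 200 in all 6 lists.

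Few other summits were called around the strongest origin of the array. The lists give summits and no peak widths, so a stretch without a summit need not lack enrichment. Around ARS1213, beside the osmostress kinase gene HOG1, CDK/DDK bypass replicate 1 had 1 summit at the origin and 1 between 2.5 and 10 kb from it, and replicate 2 had 1 and 0. Replicate 1 had no summit for 16.6 kb on its left and 9.08 kb on its right, and replicate 2 none for 9.44 kb and 11.7 kb. ARS1215 had 5 and 5 summits between 2.5 and 10 kb, and ARS1211 8 and 3. ARS1212, where scores were low in every list, had 9 and 10. Gaps of more than 5 kb inside the array numbered 7 in replicate 1 and 12 in replicate 2, and 6 and 5 of them had a summit within 2.5 kb of an ARS at one end. To the left of ARS1213 density was alike in the replicates, at 4.16 and 4.44 summits per 10 kb, and to its right replicate 2 was sparser (4.70 and 2.74 per 10 kb).

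Array summits did not gather at annotated origins. Within 2.5 kb of an ARS lay 8.33% and 12.2% of the CDK/DDK bypass summits of the stretch, 75% and 63.6% of those of CDK bypass, and 71.4% and 70% of those of control. That distance takes in 15.5% of the bases of the stretch, so the CDK/DDK bypass shares were below the share of bases. An exact ARS consensus match was in the 1001-bp window of 6.06% and 9.30% of array summits away from an ARS, against 6.26% of 12053 windows of that length tiled over the nuclear genome.

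Most array summits fell in genes. In protein-coding genes lay 71 of 99 summits (71.7%) away from an ARS in replicate 1 and 74 of 86 (86.0%) in replicate 2, and genes make up 77.9% of the stretch, so the replicates lay on either side of that share. The summits touched 43 and 38 of its 122 coding genes, 26 of them in both lists. These 26 were longer (median 2.32 kb) than the genes of the stretch as a whole (median 1.24 kb). A longer gene has more room for a summit, so this difference in length was largely set in advance. REA1, the longest gene there at 14.7 kb and encoding an AAA-type ATPase of 60S ribosome assembly, held 5 and 13 summits. Next were CSF1 with 6 and 2, STU2, a microtubule-binding protein gene, with 3 and 3, and RAX2, a bud-site gene, with 3 and 3. These genes were picked after their counts were seen. Within 500 bp of a Ty element or long terminal repeat (LTR) lay 1 and 0 of all 108 and 98 summits of the stretch, where 2.72% of bases lie that close. Within 500 bp of a tRNA gene lay 2 and 0 (1.85% of the summits of replicate 1), where 1.72% of bases do. The GC content of the 500 bp around these summits had a median of 36.6% ± 3.86 and 38.5% ± 3.84 (SD over 99 and 86 summits), and that of all such windows of the stretch was 38.2% ± 4.06.

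The highest-scoring positions shared by both CDK/DDK bypass lists, within 500 bp and away from ARS, lay in or beside 7 genes. Those 8 positions were in REA1 (2 of them), in GAA1, a subunit gene of the GPI transamidase, in NHA1, a sodium/proton antiporter gene, in DIP2, a small-subunit processome gene, in IOC2, of an ISW1 chromatin remodeller, and beside BUD20 and ARP6. BUD20 acts in export of the 60S subunit and ARP6 in the SWR1 remodeller. The best, in REA1, scored 21.3 and 15.7 at positions 6 bp apart. The next, in GAA1, scored 19.9 and 8.09 at positions 349 bp apart, and that in NHA1 14.5 and 12.5 at positions 465 bp apart. No CDK bypass or control list had a summit within 2.5 kb of any of the 8. In the whole stretch CDK bypass lists held only 2 and 4 summits away from an ARS, and control lists 2 and 3. This absence was therefore nearly fixed in advance and says nothing particular about these positions. The sequences around the 3 best are coding sequence with 42.0%, 34.6% and 39.5% GC over 81 bases. They were picked by score and need not be typical of the array. For GAA1 and NHA1 the summit of replicate 2 lay outside the printed bases. Each sequence is printed on the plus strand, with the summit base of replicate 1 in capitals (chr12:351356-351436, chr12:317255-317335 and chr12:420432-420512).
REA1: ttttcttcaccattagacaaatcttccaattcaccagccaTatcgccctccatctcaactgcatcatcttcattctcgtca
GAA1: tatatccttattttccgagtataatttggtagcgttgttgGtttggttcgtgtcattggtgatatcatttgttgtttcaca
NHA1: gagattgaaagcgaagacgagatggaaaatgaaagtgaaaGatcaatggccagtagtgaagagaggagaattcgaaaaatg

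Over the whole genome, few 10-kb bins separated CDK/DDK bypass from the other groups in this direction, and most of them were on chromosome 12. Bins that held a CDK/DDK bypass summit in both replicates and no control summit numbered 18 of 108 on chromosome 12, 16 of them in the 250-kb stretch, against 9 of 1108 on the other chromosomes (background over all bins, 2.22%). In the opposite direction, called in both control lists and neither CDK/DDK bypass list, were 7 of 108 bins, 4 of them to the right of the rDNA (background, 4.61%). Against CDK bypass, both CDK/DDK bypass lists alone were called in 19 bins of chromosome 12 (background, 2.14%) and both CDK bypass lists alone in 7 (background, 5.26%). CDK bypass and control differed little here, with 2 bins in both CDK bypass lists and neither control list (background, 1.81%) and 2 bins the other way (background, 0.74%). Since the members were drawn from these same calls, the counts are a description.

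The origins of chromosome 12 were then taken one by one. Of 29 annotated ARS, 13 had a summit within 2.5 kb in all 6 lists (44.8%, background over 352 nuclear ARS, 39.2%) and 9 (31.0%) had none in any list. Of the 323 ARS on the other chromosomes, 128 (39.6%) had none in any list. The 9 uncalled ones were ARS1202 and ARS1208 in the first piece, with ARS1208 next to the centromere, and ARS1221, ARS1238, ARS1228, ARS1230, ARS1233, ARS1234 and ARS1235 on the right arm. Outside the rDNA, 15 and 15 of 26 ARS were called in CDK/DDK bypass, 14 and 14 in CDK bypass, and 15 and 15 in control. The difference was 0 between CDK/DDK bypass and control (exact two-sided permutation test, p = 1, adjusted p = 1). It was −1 between CDK bypass and control and 1 between CDK/DDK bypass and CDK bypass (exact p = 0.333 and adjusted p = 0.4 each, over 6 tests). With 2 lists per group the smallest p possible is 0.333, so no difference here could pass a threshold.

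Outside the rDNA, 3 ARS were called in both lists of 1 group and in no other list. ARS1212.5 had summits only in CDK/DDK bypass, with scores of 15.4 and 11.3, and so did ARS1214, with 13.5 and 7.60 (background of this pattern over 352 ARS, 1.99%). Both lie inside the array, whose summits are a median of 1.51 and 1.18 kb apart, and scored within the range of the array summits away from ARS. ARS1232 on the right arm was called only in control, at 12.1 and 11.3 (background, 1.7%). With the ARS of the 250-kb stretch set aside, 8 and 9 ARS were called in CDK/DDK bypass, 9 and 9 in CDK bypass, and 10 and 10 in control. CDK/DDK bypass minus control was then −1.5 (exact p = 0.333).

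The consensus elements of these origins are shown to let the called and uncalled ones be set side by side. An exact consensus match was found in 9 of the 29 ARS of chromosome 12, in 4 of the 13 called in all 6 lists and in 2 of the 9 uncalled ones. Over the nuclear genome 124 of 352 ARS (35.2%) and 1.49% of tiled 241-bp windows, the median ARS length, held one on either strand. Each line gives the match in capitals with 20 bases on each side, on the strand of the match: ARS1213 (chr12:373295-373345, minus), ARS1217 (chr12:513051-513101, minus) and ARS1220 (chr12:659875-659925, plus) were called in all lists, ARS1232 (chr12:1007223-1007273, plus) in control alone, and ARS1208 (chr12:151062-151112, plus) and ARS1238 (chr12:888708-888758, minus) in none.
ARS1213: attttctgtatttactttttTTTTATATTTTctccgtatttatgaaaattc
ARS1217: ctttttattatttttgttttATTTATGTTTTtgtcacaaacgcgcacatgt
ARS1220: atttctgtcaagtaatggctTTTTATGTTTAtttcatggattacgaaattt
ARS1232: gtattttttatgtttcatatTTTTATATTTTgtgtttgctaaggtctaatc
ARS1208: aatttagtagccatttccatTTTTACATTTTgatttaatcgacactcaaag
ARS1238: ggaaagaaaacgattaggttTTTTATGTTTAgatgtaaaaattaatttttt

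At 11 of the 12 ARS outside the rDNA that were called in every list, both CDK/DDK bypass scores were below both control scores. ARS1213 had its highest summit at 637 and 753 in CDK/DDK bypass, 1705 and 2057 in CDK bypass, and 1612 and 2707 in control. ARS1211 had 267 and 375 in CDK/DDK bypass, 1259 and 1476 in CDK bypass, and 1988 and 2923 in control. ARS1215 had 230.1 and 309 in CDK/DDK bypass, 738 and 771 in CDK bypass, and 933 and 1205 in control. At these 3 origins, as at the others of the 12 except ARS1212, no CDK/DDK bypass score reached any score of the other lists. ARS1209, in the first piece beside NOC3, a gene of replication and ribosome assembly, had 47.4 and 55.5 in CDK/DDK bypass, 489 and 636 in CDK bypass, and 1234 and 1622 in control. Its CDK/DDK bypass scores were a far smaller part of the control scores than those of the origins near the rDNA. The background for CDK/DDK bypass below control, over the 138 ARS of all chromosomes called in every list, was 96.4%. Both CDK bypass scores were below both control scores at 10 of 12 (background, 80.4%). At ARS1212 all lists were low, with 14.4 and 12.8 in CDK/DDK bypass, 8.40 and 3.81 in CDK bypass, and 16.3 and 11.3 in control. These counts were near the background, so chromosome 12 did not stand out in them.

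**Figure D4:**
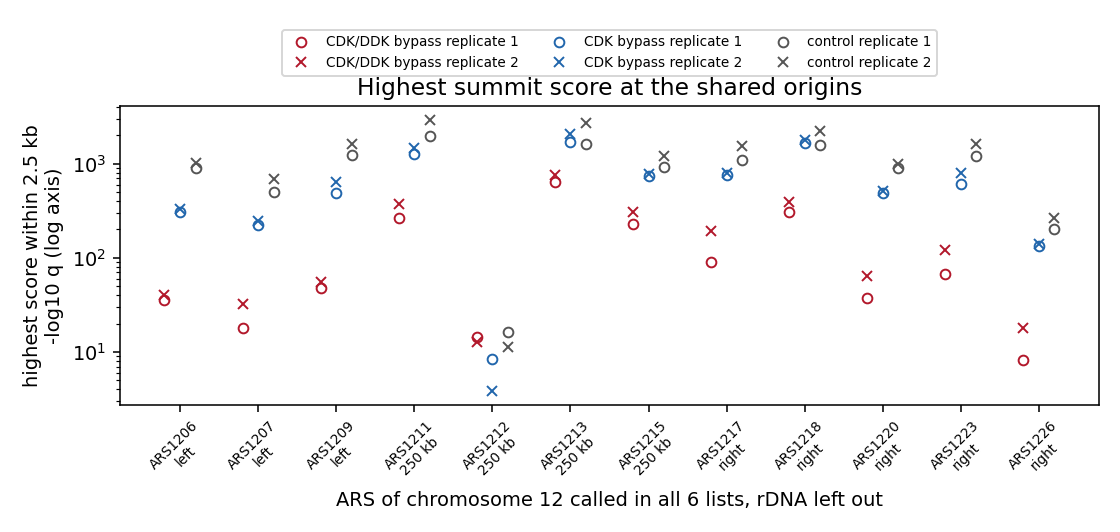
Highest score within 2.5 kb (−log10 q, log axis) at the 12 ARS of chromosome 12 outside the rDNA that were called in all 6 lists, in chromosome order, for CDK/DDK bypass (red), CDK bypass (blue) and control (grey), replicates 1 (circles) and 2 (crosses). At 11 of 12 ARS both red points lie below both grey ones, and ARS1212 is the exception.

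How far the scores were lowered differed along the chromosome. The mean score in CDK/DDK bypass over that in control was 0.0360 to 0.0419 at the 3 ARS of the first piece (ARS1206, ARS1207 and ARS1209). It was 0.131 at ARS1211, 0.322 at ARS1213, 0.252 at ARS1215 and 0.987 at ARS1212 in the 250-kb stretch. To the right of the rDNA it was 0.108 at ARS1217, 0.184 at ARS1218, and 0.0534 to 0.0664 at ARS1220, ARS1223 and ARS1226. The median of the 125 such ARS on other chromosomes was 0.108. CDK bypass over control was 0.330 to 0.394 in the first piece, 0.443 to 0.871 in the stretch and 0.498 to 0.906 to the right, and the median elsewhere was 0.512. The ratios of the first piece were the lowest of chromosome 12 for both strains. Over the 125 ARS elsewhere the ratios ran from 0.0162 to 1.73 for CDK/DDK bypass and from 0.156 to 2.44 for CDK bypass. Every ratio of chromosome 12 lay inside these ranges. No test was made, since scores from lists of unknown depth are not on 1 scale, and a ratio of scores is not a ratio of DNA.

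The percent of summits near an origin outside the 250-kb stretch separated the groups. Within 2.5 kb of an ARS lay 55.6% and 56% of those summits in CDK/DDK bypass, 28.9% and 32.4% in CDK bypass, and 43.8% and 43.6% in control. The groups did not overlap. CDK/DDK bypass was 12.1 percentage points above control and 25.1 above CDK bypass, and the difference of CDK bypass from control was −12.98. Each of these gave an exact two-sided permutation p = 0.333, the smallest possible, and an adjusted p = 0.4. On the other chromosomes, 40 of 205 and 65 of 257 CDK/DDK bypass summits lay more than 2.5 kb from any ARS. There the counts were 158 of 341 and 188 of 379 in CDK bypass, and 109 of 279 and 165 of 343 in control. CDK/DDK bypass thus had the largest share near an ARS there too, while the shares of CDK bypass and control overlapped. On chromosome 12 the direction against control turned under 2 alternatives. With 1 summit per 5 kb, CDK/DDK bypass minus control was −1.68 points (exact p = 0.667) and CDK/DDK bypass minus CDK bypass was 8.53. With summits within 500 bp of a Ty element or LTR left out, an alternative chosen after seeing the data, the shares were 60% and 54.5% in CDK/DDK bypass, 42.9% and 58.8% in CDK bypass, and 70.6% and 69.6% in control, so CDK/DDK bypass minus control was −12.8 points (exact p = 0.333) and CDK/DDK bypass minus CDK bypass was 6.43 (exact p = 0.667).

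Transposon summits were few in CDK/DDK bypass. Ty elements are retrotransposons, present in many near-identical copies, so reads from them cannot be assigned to 1 copy with certainty and each place is uncertain. On chromosome 12, 4 and 3 summits lay within 500 bp of a Ty element or LTR in CDK/DDK bypass, 18 and 22 in CDK bypass, and 15 and 18 in control. Inside the 5 full-length elements there were 0 and 0 summits in CDK/DDK bypass, 11 and 16 in CDK bypass, and 9 and 12 in control. The Ty2 element YLRWTy2-1 (chr12:941192-947150) held the most, with 0 and 0 in CDK/DDK bypass, 4 and 5 in CDK bypass, and 4 and 3 in control, and its highest scores were 18.3 and 34.4 in CDK bypass and 63.8 and 107 in control. All 5 elements had a summit in every CDK bypass and control list. The difference was not particular to chromosome 12, since Ty and LTR summits elsewhere were 15.1% and 10.5% of summits in CDK/DDK bypass, 29.9% and 37.5% in CDK bypass, and 31.2% and 42.9% in control.

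In the rDNA piece the lists shared 1 place and differed in the others. All 6 lists had a summit within 8 bp, between 459795 and 459802, at the end of the first 5S rRNA gene RDN5-1 and 698 to 705 bp from ARS1200-1. Its score was 3308 and 4038 in CDK/DDK bypass, 2296 and 2013 in CDK bypass, and 7243 and 637 in control. It was the highest nuclear summit of both CDK/DDK bypass lists, and the control replicates differed more from each other than from either bypass strain. The second unit's ARS had a summit 12 to 15 bp away, between 468113 and 468116, scoring 2872 and 2459 in CDK bypass and 8330 in control replicate 1. Control replicate 2 instead had a summit at 466448 in the 18S gene RDN18-2 (score 975), and no CDK/DDK bypass list had a summit within 2.5 kb of that ARS. From the start of RDN37, the 35S precursor gene, to the end of the spacer that holds the ARS, the 2 units did not differ at any of 8101 bases, so which unit a read came from cannot be told.

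The CDK/DDK bypass lists had an rDNA place of their own at the right end of the piece. It lay at 490198 and 490199, 208 and 207 bp from RRT15, with scores of 866 and 949, and no other list had a summit there. The summit sits in a run of 526 bases (chr12:489917-490442) that is 100% identical to part of RDN25-1, and therefore to sequence inside the repeat unit. CDK/DDK bypass replicate 1 also had a summit in the 5S copy RDN5-4 (482102, score 254), where CDK bypass had 82.8 and 114 and control had none. RDN5-5 had summits in CDK bypass alone, with scores of 21.7 and 60.3. RDN5-2 to RDN5-5 are 99.2% and RDN5-6 is 100% identical to RDN5-1, so these places too share reads. Between them, the asparaginase genes ASP3-1 to ASP3-4 had a summit only in ASP3-2 and only in CDK bypass, at 1.52 and 4.74. The left edge of the first unit, in the external spacer 904 to 963 bp from ARS1216, was called in CDK bypass replicate 2 (47.8) and in both control lists (184 and 4.30). The Ty1 element YLRCTy1-1 (chr12:475976-481897) held 0 and 0 summits in CDK/DDK bypass, 2 and 3 in CDK bypass, and 1 and 2 in control.

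**Figure D5:**
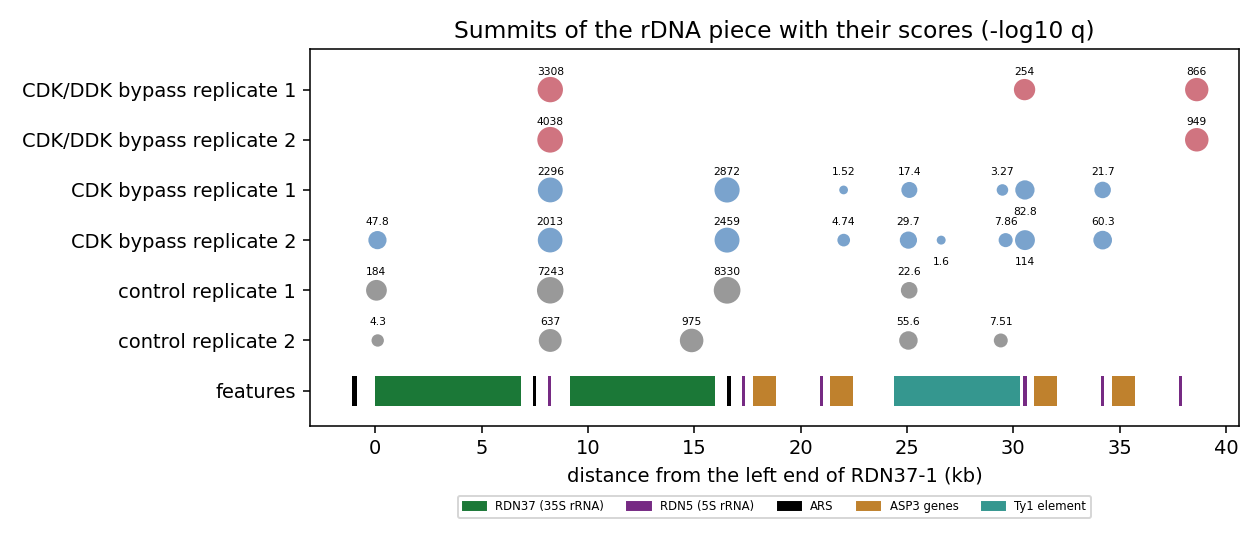
Summits of the rDNA piece by distance in kb from the left end of RDN37-1, in the 6 lists (CDK/DDK bypass above, control below), with the score (−log10 q) beside each point, point size growing with its logarithm, and annotated features at the bottom. All lists share the summit at the first 5S gene, and the 866 and 949 at the far right are in CDK/DDK bypass alone.

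To the right of the rDNA, the longest stretch without a summit was longer in CDK/DDK bypass than in the other groups. ARS1217, ARS1218, ARS1220, ARS1223 and ARS1226 were called in every list, and the highest summit of the arm was near ARS1218, beside ECM22, a sterol regulator gene, or CDC42, a polarity GTPase gene. It scored 307 and 394 in CDK/DDK bypass, 1671 and 1776 in CDK bypass, and 1569 and 2235 in control. Past ARS1226 the CDK/DDK bypass lists had no summit for 277 and 278 kb, up to one in the right telomeric region. The longest gap was 147 and 148 kb in CDK bypass and 148 and 148 kb in control, and ended at the Ty2 element in each. Beyond ARS1226, no CDK bypass list had a summit near an ARS, and the control lists had one at ARS1232 only. CDK bypass and control lists had summits there in the Ty2 elements YLRWTy2-1 and YLRCTy2-2. CDK/DDK bypass lists had none in any full-length Ty element of the chromosome. The 147 kb from 794250 to 941429 had no summit in any list, although it holds 3 ARS.

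At the chromosome ends every list had a summit between 5764 and 5780 in the left telomeric region and between 1071507 and 1071538 in the right one. The left one scored 22.3 and 24.0 in CDK/DDK bypass, 173 and 171 in CDK bypass, and 624 and 443 in control. These ends carry the repeated Y′ helicase genes, so their reads are shared with other ends. Both CDK/DDK bypass lists and CDK bypass replicate 1 also had a summit 200 to 206 bp from the left end, which control lacked.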

How the data were processed

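The deposited lists give summit positions with −log10 q-value scores, 1 list per sample. The authors aligned paired-end reads to sacCer3 with BWA (0.7.17-r1188) and SAMtools (1.12) and called peaks with MACS2 (2.2.7.1) per sample against total DNA, with a stated q-value of 0.1; the lowest score was 1.31. No summit lay beyond its chromosome's end in R64, the same build. Sequences and features are from RefSeq R64. Members, pieces, lists and tests were chosen with earlier results of these data known. Named are ARS called in both lists of 1 group and in neither of another, strong ARS called in every list, those of the rDNA, and genes at the highest summits or at run ends. A summit counted as near an ARS within 2.5 kb, and near a Ty, LTR or tRNA within 500 bp. Group means were compared by exact permutation and adjusted by Benjamini-Hochberg. Python 3.11.15, numpy 2.4.6, scipy 1.17.1 and blastn 2.17.0 were used, with functions tested on simulated lists. Percentiles are among a list's nuclear summits. The other 216 samples were not analysed here.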

Additional observations from a re-analysis of the deposited data

Results flagged for a closer look

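On chromosome 12 both bypass strains moved away from the control mean in opposite directions in every list for 3 values, of which the first 2 below were not tested between the strains. Summits in the rDNA piece numbered 3 and 2 in CDK/DDK bypass and 7 and 9 in CDK bypass, against a control mean of 4.5 (difference of CDK/DDK bypass from CDK bypass, −5.5). Summits at Ty elements or LTRs numbered 4 and 3 in CDK/DDK bypass and 18 and 22 in CDK bypass, against a control mean of 16.5 (difference −16.5). One control list, with 18, equalled a CDK bypass list. The percent of summits near an ARS outside the 250-kb stretch was 55.6% and 56% in CDK/DDK bypass and 28.9% and 32.4% in CDK bypass, against a control mean of 43.7% (difference 25.1, exact two-sided permutation p = 0.333, the smallest possible, adjusted p = 0.4). The opposite directions did not hold under 2 alternatives, where both strains were below control. Without Ty and LTR summits, CDK/DDK bypass minus control was −12.8 and CDK bypass minus control −19.2, and with 1 summit per 5 kb they were −1.68 and −10.2. The difference between the strains was then 6.43 and 8.53. On the other chromosomes too, CDK/DDK bypass lists had the smallest shares of summits away from an ARS.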

How the results depend on the processing

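Depth per sample is unknown and 2 lists per group allow no p under 0.333, so no comparison could pass a threshold. Repeated sequence (rDNA, Ty, chromosome ends) shares reads. For the share near an ARS outside the 250-kb stretch, CDK/DDK bypass minus control was 12.1 points; it turned to −1.68 with 1 summit per 5 kb and to −12.8 without Ty and LTR summits. With each list left out in turn it was 11.9 to 12.3, CDK bypass minus control −14.7 to −11.2, and CDK/DDK bypass minus CDK bypass 23.3 to 26.8. This last difference was 8.53 with 1 summit per 5 kb and 6.43 without Ty and LTR summits. For ARS called, CDK/DDK bypass minus CDK bypass was 1 and turned to −0.5 without the ARS of the stretch; leaving out lists kept the differences at 0, −1 and 1. Pairing the lists by replicate number leaves the mean differences (12.1, −12.98, 25.1, 0, −1 and 1) unchanged by arithmetic. The sign-flip test used with these 2 pairs has a smallest possible p of 0.5. CDK/DDK bypass minus control in summits of the stretch was 94.5, and was 74 with equal list lengths, 24.5 with 1 summit per 5 kb and 89.5 to 99.5 with lists left out. In the first piece it was 1 with 1 summit per 5 kb (1.5 to 2.5 with lists left out), in the rDNA piece −1 with equal lengths (−2.5 to −1.5), and to its right −5 with 1 summit per 5 kb (−17.5 to −10.5). CDK bypass minus control in the stretch was 1, turned to −1 with equal lengths and ran from −0.5 to 2.5 with lists left out. In the rDNA piece it was 0.5 with 1 summit per 5 kb (2.5 to 4.5), in the first piece 0.5 to 3.5 and on the right −7 to 0. Shared positions in the stretch were 52.9% in CDK/DDK bypass, 38.8% within 250 bp and 68.4% within 1 kb; CDK bypass gave 94.7% within 1 kb, and control 35.3% and 88.2%, or 78.9% within 1 kb outside the stretch. Bins in both CDK/DDK bypass lists and neither control list numbered 34 at 5 kb and 7 at 20 kb, and against CDK bypass 33 and 7. Bins in both CDK bypass lists alone numbered 4 and 1 against control and 12 at 5 kb against CDK/DDK bypass, and control alone 1 at 20 kb against CDK bypass. The cause of these shifts was not tested.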

Other observations

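Within the array of CDK/DDK bypass, the scores themselves differed on the 2 sides of ARS1213, a split chosen after seeing the data. Many weak summits of a list carry exactly the same score as another summit of that list. Among summits with a score under 30 to the left of ARS1213 in the 250-kb stretch, this held for 55 of 70 in CDK/DDK bypass replicate 1 and 50 of 75 in replicate 2. To the right of ARS1213 it held for 0 of 35 and 0 of 20. On the other chromosomes the shares were 66.3% of 104 and 68.1% of 135 summits in the same lists. CDK bypass and control had no summit under 30 to the right of ARS1213 in the stretch, so the same count cannot be made there. The median scores of these summits were 5.91 and 4.70 to the left and 4.61 and 3.57 to the right.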
